A study of Danio rerio with 6 samples.

Results

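Homeobox and basic helix-loop-helix (bHLH) genes that give spinal cord cells their identity were followed in the trunks of zebrafish (Danio rerio) embryos with and without the RNA-binding Quaking proteins qkia and qkic. Members were chosen by a rule on names, with earlier results of these data known. The rule took every gene in the tables whose symbol starts with lhx, isl, nkx, irx, dbx, vsx, olig, neurod, neurog, mnx or dlx followed by a digit. The rule found 63 of 24789 gene IDs. Poly(A) RNA was sequenced from 3 control libraries and 3 loss of function libraries, all of trunks taken 24 to 26 h after fertilization with the head and yolk removed. Control embryos were qkia+/+ or qkia+/- and had been injected with control morpholino. Loss of function embryos were qkia-/- and had been injected with qkic morpholino, an antisense oligonucleotide meant to block the qkic transcript. All were offspring of qkia+/- crosses, injected with 0.6 pmol at the one-cell stage and sorted by their shape. Genotype and morpholino therefore changed together and their parts cannot be told apart, the controls mix 2 genotypes, and how many embryos went into a library is not stated in the labels.

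In the vertebrate neural tube, cells are sorted along the dorsal to ventral axis by transcription factors that repress each other at shared borders. Nkx2.2, Nkx2.9, Nkx6, Olig2, Dbx and Irx proteins mark progenitor domains, the proneural bHLH proteins of the Neurog and Neurod families drive cells out of division into neuronal differentiation, and LIM homeobox proteins (Isl and Lhx), Mnx and Vsx proteins fix the type of neuron that results. At this stage the zebrafish spinal cord holds its first motor neurons, its large dorsal sensory cells (Rohon-Beard cells) and several classes of interneuron, while progenitors still divide. Relatives in the same families serve outside the spinal cord, such as Dlx genes in the forebrain, placodes and fins and NKX3-2 in the sclerotome, the part of the somite that forms the vertebrae.

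The mutated gene was low in every loss of function library, with qkia at 61.7, 81.9 and 58.9 normalized read counts in control replicates 1 to 3 and 5.98, 6.93 and 3.34 in loss of function replicates 1 to 3. Of 2 further genes named QKI, ENSDARG00000010018 fell 1.93-fold (limma adjusted p = 1.42e-07) and ENSDARG00000002026 had a log2 change of 0.12 (limma adjusted p = 0.684). Which of them is qkic is not stated in the name table used, and a morpholino need not lower its transcript, so its target was not checked. The libraries held 38804265 to 44799398 reads in genes, more than the mean per sample in the labels, for a reason not found in the sources at hand. Muscle, notochord, skin and neuron markers were present in all 6 libraries. The 7 markers of the absent head and eye that were matched summed to 165 to 190.4 in controls and to 156 to 180.2 in loss of function libraries, and the lens gene CRYAA stayed at or below 4 reads. Yolk was removed as well, yet the yolk and liver genes fabp10a (6.09-fold, at 19.4, 22.7 and 18.3 in controls, compared with 109.7, 137 and 122 in loss of function) and apobb.1 (1.22-fold) were higher there (limma adjusted p = 3.04e-08 and 8.85e-04). Of 8 muscle marker genes, 4 were called lower, 1 was higher and 3 did not pass, where 20.0% of all tested genes were lower. The myosin gene myhz2 had the largest fall of the 8 (2.05-fold, limma adjusted p = 3.10e-07). The 2 genes named ACTA1 went opposite ways. ENSDARG00000055618 rose by 0.31 log2 units (limma adjusted p = 0.00497) and ENSDARG00000036371 fell by 0.36 (limma adjusted p = 7.70e-05). MYOD1 changed by -0.02 (limma adjusted p = 0.828). The part of these tissues in the results was not tested. Controls differed more among themselves than loss of function libraries did, with a chi-square per degree of freedom of 7.90 to 14.2 against 2.11 to 2.45. The labels number the libraries of a group but do not say whether they came from separate clutches, so p-values measure only the spread between these 3 and 3 libraries, which may be technical.

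Most tested members with a spinal role were lower in loss of function trunks, by modest amounts. Of the 63 members, 52 passed the filter on low values, a normalized read count of at least 10 in at least 3 libraries, and 11 did not. At a limma adjusted p under 0.05, 25 of the 52 were lower and 3 were higher in loss of function trunks, where 20.0% of all 18917 tested genes were called lower and 21.9% higher. Their median log2 change was -0.25, against 0.00 over all tested genes. A change in log2 units is taken on the log2(value + 1) scale throughout. In 29 members every loss of function library lay under every control library and in 6 it was the reverse, where 25.4% and 26.8% of all tested genes did so. Of the 28 called members, 10 changed by at least 0.5 log2 units, beside 2516 of the 7935 genes called among all tested. Those are 10 of the 52 tested members, beside 13.3% of all tested genes. Of the 52, 4 reached 10 in all 3 control libraries but in fewer than 3 loss of function libraries (NKX2-1, nkx2.7, IRX6 and nkx3.3). Passing the filter in this way favours a lower value in loss of function.

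Roles were assigned with earlier results of these data known, and the difference between roles was not tested. Of 33 members with a motor neuron, ventral progenitor, interneuron, proneural or Olig role, 26 were tested. All 26 of those had a negative log2 change, from -0.80 to -0.06 with a median of -0.34. In the test 18 passed as lower and 0 as higher, beside 20.0% and 21.9% of all tested genes. Without control replicate 2, lhx5 had a log2 change of 0.00041 (limma adjusted p = 0.998), and 13 of the 26 were still called lower. The other 26 tested members, of Iroquois, distal-less, other NK and other LIM homeobox genes, had 13 negative and 13 positive changes with a median of 0.00, and 7 were lower and 3 higher. Irx proteins also mark progenitor domains but serve in many tissues, and with the 9 Iroquois genes counted among the spinal roles 33 of 35 changes were negative and 22 passed as lower. The gene nkx1.2la, whose chick and mouse counterparts mark the caudal neural plate, was counted with the other NK genes. It rose by 0.68 log2 units (limma adjusted p = 6.46e-04), so the lack of positive changes and higher calls in spinal roles depends on that placement. A bulk measurement cannot tell fewer cells of a type from less RNA per cell, so a lower value can be either.

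**Figure D1:**
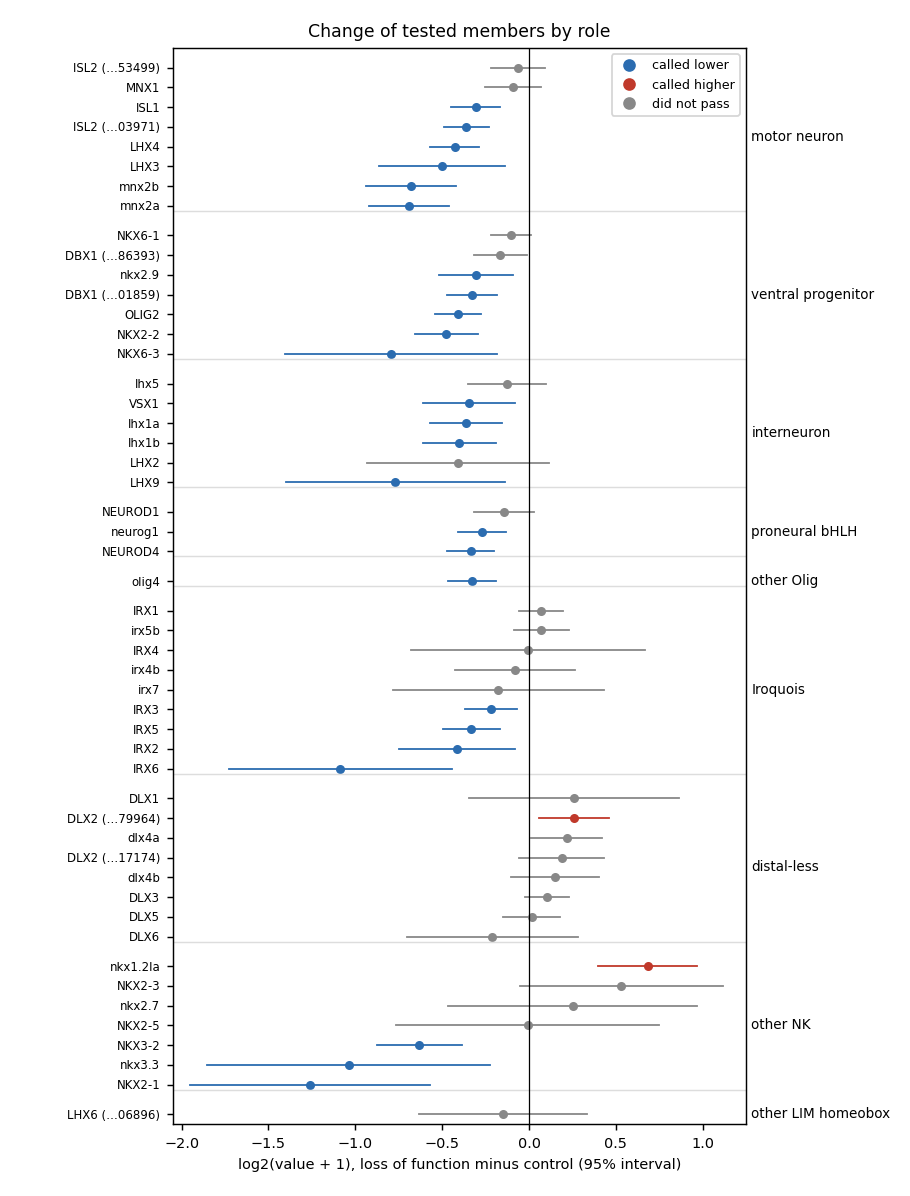
Log2 change of 50 tested members (x axis, loss of function minus control on the log2(value + 1) scale, with 95% limma intervals), grouped by role on the y axis; blue members were called lower, red higher and grey did not pass at an adjusted p of 0.05. All 25 points shown of the motor neuron, ventral progenitor, interneuron, proneural and other Olig groups lie left of 0, from -0.80 to -0.06, and the distal-less points lie mostly right of it.

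Of 8 tested motor neuron genes, 6 fell and 2 did not pass. That is 75.0% called, all lower, where 41.9% of all tested genes were called and 20.0% were lower. Mnx homeodomain proteins act in zebrafish to keep motor neurons from taking on interneuron traits. The gene mnx2a (ENSDARG00000042106) had normalized read counts of 220.3, 195 and 210.1 in controls, compared with 129.6, 124 and 133 in loss of function trunks, and the groups were far apart. Its means were 209 ± 12.5 and 129 ± 4.54 (SD, n = 3 in each group), a 1.62-fold decrease with a log2 difference of -0.69 (SE 0.11, limma adjusted p = 9.32e-05). The related mnx2b (ENSDARG00000030350) had 182, 194 and 214 in controls, compared with 109, 138 and 123 in loss of function, with a log2 difference of -0.68 (SE 0.12, limma adjusted p = 3.05e-04). Both Mnx2 genes thus fell by about the same amount, with no overlap between groups. MNX1 (ENSDARG00000035984), the third member of the family, had 464, 473 and 435 in controls, compared with 419.8, 449 and 417 in loss of function. Its groups overlapped, and its log2 change of -0.09 (95% interval -0.25 to 0.07) missed the threshold at a limma adjusted p of 0.347.

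Islet proteins are LIM homeodomain factors of motor neurons and of Rohon-Beard sensory neurons, and ISL1 also serves in heart and pancreas. ISL1 (ENSDARG00000004023) had 1296, 1536 and 1303 in controls, compared with 1086, 1144 and 1103 in loss of function trunks, so all 3 controls were higher. It fell 1.24-fold, with a log2 difference of -0.31 (SE 0.07, limma adjusted p = 0.00145). Of the 2 genes named ISL2, ENSDARG00000003971 had 1432, 1578 and 1465 in controls, compared with 1109.8, 1232 and 1144 in loss of function and fell by 0.36 log2 units (SE 0.06, limma adjusted p = 1.56e-04). Its copy ENSDARG00000053499 had 439.8, 475 and 467 in controls, compared with 454, 441 and 428 in loss of function, overlapping values whose log2 change of -0.06 (95% interval -0.22 to 0.09) missed the threshold at a limma adjusted p of 0.527. The fourth Islet gene, isl1b, was not tested, with 2, 0 and 1 reads in controls, compared with 7, 3 and 1 in loss of function.

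LHX3 and LHX4 are LIM homeodomain partners of the Islet proteins in motor neurons and act without them in V2 interneurons. LHX4 (ENSDARG00000039458) had 991, 1129.8 and 978 in controls, compared with 781, 753 and 763 in loss of function, a decrease of 1.35-fold (log2 change -0.43, SE 0.07, limma adjusted p = 7.46e-05). The loss of function values were nearly equal and well under the lowest control. LHX3 (ENSDARG00000003803) rested on fewer reads, with normalized read counts of 86.4, 78.0 and 67.0 in controls, compared with 51.9, 61.4 and 49.1 in loss of function, and also fell (log2 change -0.50, SE 0.17, limma adjusted p = 0.0266). In all, 16 alternative settings were run (15 where a gene drops out under a stricter filter), and adjusted p ranges over settings span limma, edgeR and DESeq2. The LHX3 call was lost in 6 of 16 alternative settings, among them the fits without control replicates 1 and 2 or loss of function replicates 1 and 3 (limma adjusted p = 0.102, 0.0575, 0.0804 and 0.0944 in that order), and over all of them the adjusted p ran from 0.0151 to 0.102.

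**Figure D2:**
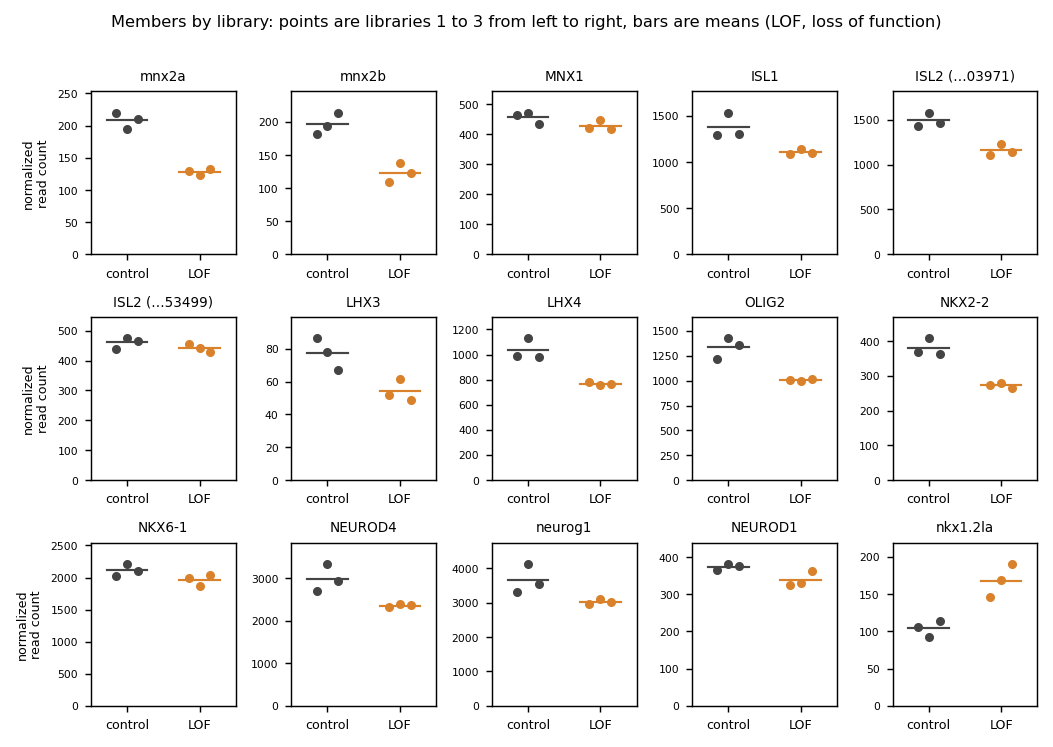
Normalized read count (y axis, from 0) in each of the 3 control and 3 loss of function (LOF) libraries for 15 members; points are libraries and horizontal bars are group means. The groups stand apart for mnx2a, mnx2b, ISL1, LHX3, LHX4, OLIG2, NKX2-2, NEUROD4 and neurog1, and overlap for MNX1, ISL2 (ENSDARG00000053499) and NKX6-1, while nkx1.2la was higher in loss of function.

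Of 7 genes counted with the ventral and middle progenitor domains, 5 fell (71.4%, beside 20.0% of all tested genes). Among them was NKX6-3, which was placed there by its family name alone. OLIG2 (ENSDARG00000040946), the bHLH factor of motor neuron progenitors and later of oligodendrocyte precursors, had 1219.8, 1427 and 1361 in controls, compared with 1003, 993 and 1018 in loss of function. It fell 1.33-fold (log2 change -0.41, SE 0.06, limma adjusted p = 7.57e-05), and the groups did not overlap. NKX2-2 (ENSDARG00000053298), which marks the domain next to the floor plate, had 369, 409 and 362 in controls, compared with 274, 279 and 264 in loss of function, a 1.39-fold decrease (log2 change -0.48, SE 0.09, limma adjusted p = 2.81e-04). The gene nkx2.9 (ENSDARG00000020332), of the same domain, had 254, 300.0 and 265 in controls, compared with 239, 213 and 208 in loss of function, and fell by 0.31 log2 units (SE 0.10, limma adjusted p = 0.0215). All 3 genes were lower in each loss of function library than in any control. The call for nkx2.9 was lost in 4 of 16 alternative settings, among them the fits without control replicate 2 or loss of function replicates 2 and 3 (limma adjusted p = 0.0832, 0.0798 and 0.0881 in that order), and over all of them the adjusted p ran from 0.0184 to 0.0881.

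NKX6-1 (ENSDARG00000022569), which spans the motor neuron progenitor domain and its neighbours, had 2026, 2213 and 2104 in controls, compared with 1993, 1874 and 2039 in loss of function. Loss of function replicate 3 lay above control replicate 1, so the groups overlapped, and the log2 change of -0.10 (95% interval -0.22 to 0.01) missed the threshold at a limma adjusted p of 0.145. After quantile normalization it passed (adjusted p = 0.0391, log2 change -0.14), and over its 16 alternatives the adjusted p ran from 0.0391 to 0.462. NKX6-3 (ENSDARG00000060529), a relative, rested on few reads, at 26.4, 48.4 and 28.4 in controls, compared with 16.0, 15.8 and 25.6 in loss of function, and passed as lower (log2 change -0.80, SE 0.29, limma adjusted p = 0.0349). That call was lost in 7 of 15 alternative settings, among them the fits without control replicate 2 or loss of function replicates 1 and 2 (limma adjusted p = 0.188, 0.118 and 0.114 in that order), and over all of them the adjusted p ran from 0.0195 to 0.188.

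Dbx proteins mark the progenitors that give rise to V0 interneurons, at the middle of the dorsal to ventral axis. Of the 2 genes named DBX1, ENSDARG00000001859 had 1197, 1402 and 1184 in controls, compared with 1024, 969 and 1012 in loss of function and fell by 0.33 log2 units (SE 0.07, limma adjusted p = 9.20e-04). The copy ENSDARG00000086393 had 1023, 1257 and 1064 in controls, compared with 1023, 954 and 994 in loss of function, also without overlap, though control replicate 1 and loss of function replicate 1 nearly met. Its log2 change of -0.16 (95% interval -0.32 to -0.01) missed the threshold at a limma adjusted p of 0.0773. It did pass in 3 of 16 alternative settings, among them the fits without control replicates 1 and 3 (limma adjusted p = 0.0267 and 0.0393 in that order), and over all of them the adjusted p ran from 0.0267 to 0.351.

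Of 7 tested interneuron genes 4 fell (57.1%, beside 20.0% of all tested genes), among them both lhx1 copies. These LIM homeodomain genes are used by several interneuron classes and also by the pronephros, the embryonic kidney. The gene lhx1a (ENSDARG00000014018) had 568, 777 and 609.9 in controls, compared with 463, 539 and 505 in loss of function (log2 change -0.37, SE 0.10, limma adjusted p = 0.00654). Its copy lhx1b (ENSDARG00000007944) had 296, 327 and 284 in controls, compared with 209, 225 and 253 in loss of function (log2 change -0.40, SE 0.10, limma adjusted p = 0.00390). Neither overlapped between groups, and the highest lhx1a value, in control replicate 2, stood well above the other controls. The call of lhx1a was lost in 1 of 16 alternatives, the fit without an intensity trend (limma adjusted p = 0.0805, in a range from 2.82e-04 to 0.0805). The related lhx5 (ENSDARG00000057936) had 366, 496 and 395 in controls, compared with 426, 367 and 351 in loss of function, overlapping groups with a log2 change of -0.13 (95% interval -0.35 to 0.10, limma adjusted p = 0.357).

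Vsx homeodomain proteins mark V2 interneurons and, in the eye, retinal cells. VSX1 (ENSDARG00000056292) had 141, 175 and 172 in controls, compared with 138, 123 and 122 in loss of function and was called lower (log2 change -0.34, SE 0.13, limma adjusted p = 0.0351). The groups did not overlap, with loss of function replicate 1 close to control replicate 1. The VSX1 call was lost in 7 of 16 alternative settings, among them the fits without control replicates 2 and 3 or loss of function replicates 2 and 3 (limma adjusted p = 0.106, 0.0887, 0.108 and 0.109 in that order), and over all of them the adjusted p ran from 0.0136 to 0.109.

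The Lhx2 and Lhx9 genes mark dorsal commissural interneurons, and also forebrain cells. LHX9 (ENSDARG00000056979) had 31.7, 31.6 and 32.5 in controls, nearly equal, and 11.0, 19.8 and 27.9 in loss of function, widely spread. Its log2 change of -0.77 (SE 0.30) was called at a limma adjusted p of 0.0471, and the call was lost in 10 of 15 alternative settings, among them the fits without control replicates 1, 2 and 3 or loss of function replicates 1 and 2 (limma adjusted p = 0.0995, 0.0844, 0.0781, 0.249 and 0.0730 in that order), and over all of them the adjusted p ran from 0.0143 to 0.249. LHX2 (ENSDARG00000031222) had 25.6, 28.6 and 30.4 in controls, compared with 20.9, 17.8 and 24.5 in loss of function, a log2 change of -0.41 (95% interval -0.93 to 0.11) that missed the threshold at a limma adjusted p of 0.199. The copy lhx2a was not tested, with 7, 5 and 5 reads in controls, compared with 3, 5 and 4 in loss of function.

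Of 3 tested proneural genes, 2 fell (66.7%, beside 20.0% of all tested genes). The gene neurog1 (ENSDARG00000056130), needed in zebrafish for Rohon-Beard and cranial sensory neurons, had 3321, 4129 and 3548 in controls, compared with 2959, 3099.6 and 3006 in loss of function. It fell 1.21-fold (log2 change -0.27, SE 0.07, limma adjusted p = 0.00291), and it did not pass in 1 of 16 alternatives, without the intensity trend (limma adjusted p = 0.0654, in a range from 2.79e-04 to 0.0654). NEUROD4 (ENSDARG00000003469), a neuronal differentiation factor, had 2708, 3344 and 2929.9 in controls, compared with 2320.4, 2389 and 2375 in loss of function and fell by 0.34 log2 units (SE 0.06, limma adjusted p = 4.79e-04). In both genes control replicate 2 was the highest library and the 3 loss of function libraries were nearly equal. NEUROD1 (ENSDARG00000019566) had 366, 382 and 376 in controls, compared with 325, 329.7 and 362 in loss of function, separate but close, with a log2 change of -0.14 (95% interval -0.32 to 0.03, limma adjusted p = 0.170). The gene olig4 (ENSDARG00000052610), an Olig relative, had 985, 1147 and 1039 in controls, compared with 839, 823 and 859.6 in loss of function (log2 change -0.33, SE 0.07, limma adjusted p = 6.90e-04).

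The other members of these bHLH families were near the limit of detection. NEUROD2, both genes named NEUROD6, neurog3 and olig1 had 0 to 13 reads in a library and were not tested. The gene neurog3 had 3, 1 and 2 reads in controls and 0 in each loss of function library, and a count of 0 allows up to 3 reads in a library. OLIG2 and olig1 are neighbours on the chromosome by the order of RefSeq genes (assembly GRCz12tu), and olig1, a gene of later oligodendrocyte precursors, had at most 2 reads in any library.

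Iroquois genes, which pattern the neural tube along both of its axes and many other tissues, were divided. Of the 9 tested, 4 were lower and 0 higher, with a median log2 change of -0.18. That is 44.4% called, all lower, where 41.9% of all tested genes were called and 20.0% were lower. IRX5 (ENSDARG00000034043) had 1516, 1909 and 1493 in controls, compared with 1342, 1280.0 and 1259.8 in loss of function and fell (log2 change -0.33, SE 0.08, limma adjusted p = 0.00235), though not without the intensity trend (0.0605, in a range from 1.13e-04 to 0.0605). Its copy irx5b (ENSDARG00000074070) had 1029, 1328 and 1199.6 in controls, compared with 1269, 1231 and 1215 in loss of function, overlapping values with a log2 change of 0.07 (95% interval -0.09 to 0.23) that was -0.03 without control replicate 1 and did not pass (limma adjusted p = 0.479). IRX5 thus separated the groups and irx5b did not. IRX3 had 688, 682 and 782 in controls, compared with 607, 613 and 625 in loss of function (log2 change -0.22, limma adjusted p = 0.0186), and IRX2 had 114, 159 and 115, compared with 80.8, 101 and 106 (log2 change -0.42, limma adjusted p = 0.0431). Both were lower in every loss of function library. The IRX3 call was lost in 4 of 16 alternative settings, among them the fits without control replicate 3 or loss of function replicates 1 and 2 (limma adjusted p = 0.0719, 0.0721 and 0.0628 in that order), and over all of them the adjusted p ran from 0.00993 to 0.0721. That of IRX2 was lost in 7 of 16 alternative settings, among them the fits without control replicate 2 or loss of function replicates 1 and 2 (limma adjusted p = 0.210, 0.201 and 0.0648 in that order), and over all of them the adjusted p ran from 0.0239 to 0.210.

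IRX6 (ENSDARG00000034420) rested on few reads and reached the filter minimum in all controls but not in every loss of function library. It had 24.7, 42.4 and 25.4 in controls, compared with 9.97, 13.9 and 17.8 in loss of function. It fell 2.22-fold (log2 change -1.09, SE 0.30, limma adjusted p = 0.00832), a call that ended in 1 of 15 alternative settings, the fit without control replicate 2 (limma adjusted p = 0.0576), and over all of them the adjusted p ran from 0.00380 to 0.0576. IRX1 (ENSDARG00000056594) had 1497, 1707 and 1678 in controls, compared with 1648, 1767 and 1706 in loss of function, with overlapping groups and a log2 change of 0.07 (95% interval -0.06 to 0.20, limma adjusted p = 0.363). The remaining irx7, IRX4 and irx4b, at means of 18.2 to 70.8, had overlapping groups and log2 changes between -0.18 and -0.01, and each had the opposite sign under at least 1 alternative.

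The copies of a duplicated gene were compared through their log2 ratio in each library, uncorrected for gene length, so that only its change between groups is read. Of 6 ratios, 4 were taken because the test called 1 copy and not the other, and the 2 with MNX1 after the values were seen. The choice of pairs thus favours a ratio that differs between groups, and the ratios are given as a description only. An exact permutation test on 3 against 3 libraries cannot give a p under 0.1, so none of them could pass it at 0.05. The ratio of ISL2 ENSDARG00000003971 to ENSDARG00000053499 was 1.70, 1.73 and 1.65 in controls, compared with 1.29, 1.48 and 1.42 in loss of function. The ratio of IRX5 to irx5b was 0.56, 0.52 and 0.32 in controls, compared with 0.08, 0.06 and 0.05 in loss of function. Both were lower in every loss of function library. The DBX1 ratio went from a mean of 0.18 ± 0.04 to 0.02 ± 0.01 (SD, n = 3). The ratios of mnx2a and mnx2b to MNX1 went from -1.13 ± 0.12 to -1.73 ± 0.11 and from -1.21 ± 0.17 to -1.80 ± 0.12. The ratio of the DLX2 copies overlapped, at 0.71 ± 0.15 and 0.78 ± 0.28. For copies that the test did not divide, the ratio of lhx1a to lhx1b went from 1.09 ± 0.15 to 1.13 ± 0.13 and that of mnx2a to mnx2b from 0.08 ± 0.16 to 0.07 ± 0.21, both with overlapping groups.

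**Figure D3:**
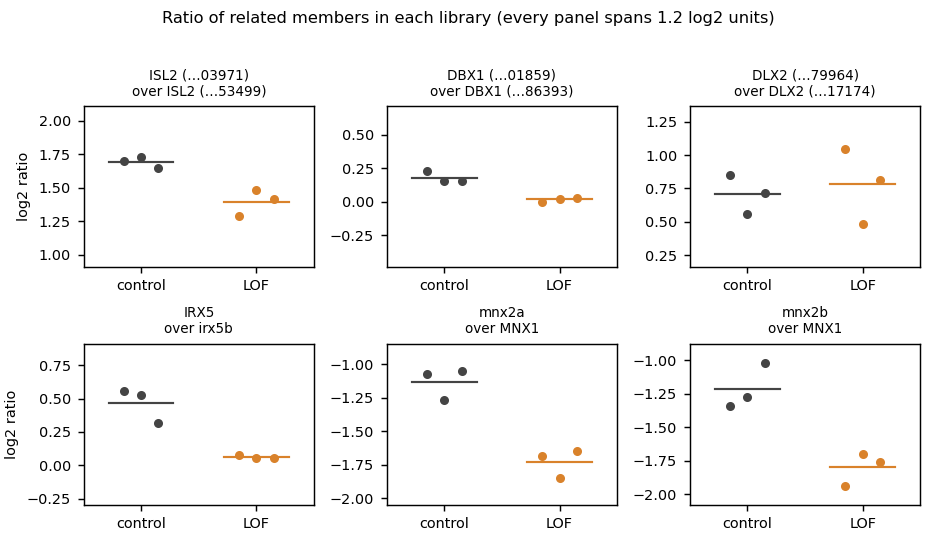
Difference of log2(value + 1), a log2 ratio, between related members (y axis, each panel spanning 1.2 log2 units) in each of 3 control and 3 loss of function (LOF) libraries; points are libraries and bars are means. The ratio was lower in every loss of function library for the ISL2, DBX1, IRX5 and both MNX1 panels, by 0.16 to 0.60 log2 units, and overlapped for DLX2.

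Distal-less genes gave a single call, for a higher value. Dlx homeodomain proteins act in forebrain interneurons, neural crest of the pharyngeal arches, placodes and fin folds, and have no general role in spinal neurons. Of 8 tested, 1 was higher and 0 lower, 12.5% called against 41.9% of all tested genes, and 7 of the 8 changes were positive (median 0.17). The DLX2 gene ENSDARG00000079964 had 278, 247 and 292 in controls, compared with 351, 298 and 328 in loss of function and was called higher (log2 change 0.26, SE 0.10, limma adjusted p = 0.0400). Loss of function replicate 2 lay just above control replicate 3, and the call was lost in 7 of 16 alternative settings, among them the fits without control replicates 1 and 2 or loss of function replicates 1 and 3 (limma adjusted p = 0.0564, 0.132, 0.186 and 0.105 in that order), and over all of them the adjusted p ran from 0.0182 to 0.186. The other DLX2 gene ENSDARG00000017174 had 153, 167 and 178 in controls, compared with 169.5, 213 and 186 in loss of function, overlapping, with a log2 change of 0.19 (limma adjusted p = 0.213).

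The placode and surface ectoderm genes DLX3 (0.10, 95% interval -0.02 to 0.23) and dlx4b (0.15, 95% interval -0.10 to 0.40) are neighbours by the RefSeq order and did not pass in log2 change (limma adjusted p = 0.182 and 0.334). The neighbours DLX5 (0.02) and DLX6 (-0.21), expressed in fin folds and arches, did not pass either (limma adjusted p = 0.894 and 0.495), and DLX5 was between -0.03 and 0.07 over its 16 alternatives. DLX1 had a log2 change of 0.26 with a wide interval (-0.34 to 0.86), and dlx4a had 0.22 (0.01 to 0.42), which passed after quantile normalization alone (adjusted p = 0.0418, in a range from 0.0418 to 0.370). In the same libraries the markers of fin fold, ectoderm and placodes gave 5 of 20 higher and 4 lower (median log2 change 0.04), shares of 25.0% and 20.0% beside 21.9% and 20.0% of all tested genes. The fin fold genes and3 (0.95) and and2 (0.54) and the keratin krt8 (0.46) rose (limma adjusted p = 1.58e-07, 3.66e-06 and 1.25e-05). The ionocyte factor foxi3a (-0.72) and the placode and neural crest genes EYA1 (-0.23) and TFAP2A (-0.20) fell (limma adjusted p = 0.00988, 0.00204 and 0.00237). Their part in the Dlx values was not tested.

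The remaining NK genes went both ways. The gene nkx1.2la (ENSDARG00000006350), whose chick and mouse counterparts mark the caudal neural plate from which the spinal cord extends, had 106, 92.8 and 114 in controls, compared with 146, 168 and 191 in loss of function. It rose 1.62-fold (log2 change 0.68, SE 0.13, limma adjusted p = 6.46e-04), and this was the largest increase among tested members. The call held in each of its 16 alternatives, between 0.59 and 0.78 log2 units. NKX3-2 (ENSDARG00000037639), of the sclerotome and the jaw joint, had 214, 229 and 233 in controls, compared with 129, 166 and 143 in loss of function and fell (log2 change -0.63, SE 0.12, limma adjusted p = 3.40e-04). Every loss of function library was under every control library.

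Other NK genes rested on few reads. NKX2-1 (ENSDARG00000019835), of the ventral forebrain and thyroid, had 24, 22 and 20 reads in controls, compared with 9, 11 and 5 in loss of function, or normalized read counts of 21.2, 21.7 and 20.3 in controls, compared with 8.97, 10.9 and 5.57 in loss of function. It fell 2.48-fold (log2 change -1.26, SE 0.33, limma adjusted p = 0.00527). NKX2-1 and nkx3.3 reached the filter minimum in all controls but not in every loss of function library, which favours a decrease. The gene nkx3.3 (ENSDARG00000069327) had 15.9, 23.7 and 22.3 in controls, compared with 15.0, 11.9 and 4.46 in loss of function (log2 change -1.04, SE 0.39, limma adjusted p = 0.0391), a call lost in 7 of 15 alternative settings, among them the fits without control replicates 2 and 3 or loss of function replicate 3 (limma adjusted p = 0.112, 0.0805 and 0.200 in that order), and over all of them the adjusted p ran from 0.0215 to 0.200. The pharyngeal gene NKX2-3 (0.53, limma adjusted p = 0.136) passed without the intensity trend alone (0.0220, in a range from 0.0220 to 0.330). The heart genes NKX2-5 (-0.01, limma adjusted p = 0.989) and nkx2.7 (0.25, limma adjusted p = 0.583), at means of 11.1 to 14.6, did not pass. NKX2-4 had at most 2 reads in a library. Of the LHX6 and LHX8 genes, used in forebrain interneurons, only LHX6 ENSDARG00000006896 was tested (log2 change -0.15, limma adjusted p = 0.625). LHX8, the other LHX6 gene and lhx8b were not, though lhx8b had 8, 8 and 13 reads in controls, compared with 4, 5 and 3 in loss of function.

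Other lists of spinal and neural genes were mixed, with more lower than higher calls. Of 60 tested transcription factors of spinal progenitors and neurons outside the families above, 32 were lower, 6 were higher and 22 did not pass, with a median log2 change of -0.27, where 20.0% of all tested genes were lower. PAX2 (ENSDARG00000028148), a factor of V1 and other inhibitory interneurons and of the pronephros, had a log2 change of -0.72 (limma adjusted p = 6.24e-07). GSX1 (-0.76, limma adjusted p = 1.32e-06), of dorsal and intermediate progenitors, and foxp1b (-0.63, limma adjusted p = 1.42e-07) fell as well. Of those that rose, the smallest adjusted p-values belonged to TAL1 (0.90), which is shared by V2b interneurons and blood progenitors, lbx2 (0.26) and GBX2 (0.30), at 1.32e-06, 0.00623 and 0.00738 by limma. Of 50 general neuron and neural progenitor genes, 24 were lower, 5 were higher and 21 did not pass (median -0.21). The pan-neuronal gene ELAVL3 (-0.51), the Notch ligand dlc (-0.66) and the receptor NOTCH3 (-0.42) fell, with limma adjusted p-values of 1.23e-06, 1.70e-07 and 1.02e-05. Both FABP7 genes, of radial glia and neural progenitors, rose by 0.65 and 1.57 log2 units (limma adjusted p = 4.27e-06 and 1.43e-05).

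Among the neuron markers used to check the tissue, 5 of 7 were lower (71.4%, beside 20.0% of all tested genes). CHAT and SLC6A5, described below, had the largest falls of the 7. SLC17A6 ENSDARG00000041150 fell by 0.21 log2 units (limma adjusted p = 0.0128). SLC17A6 ENSDARG00000001127 and MNX1 did not pass (limma adjusted p = 0.129 and 0.347). The neuron markers are no separate set. ISL1 and MNX1 are members, and ELAVL3, CHAT, SLC6A5 and both SLC17A6 genes are already counted in the general neural list. CHAT (ENSDARG00000015854), the enzyme that makes the acetylcholine of motor neurons, had 195, 235 and 189.8 in controls, compared with 86.8, 119.8 and 100.3 in loss of function, a 2.02-fold decrease (log2 change -1.01, SE 0.14, limma adjusted p = 2.14e-05). SLC6A5 (ENSDARG00000067964), the transporter of glycinergic interneurons, had 22, 30 and 21 reads in controls, compared with 7, 3 and 6 in loss of function (log2 change -1.95, SE 0.37, limma adjusted p = 4.84e-04). Neither gene overlapped between groups. SLC6A5, at normalized read counts of 6.98, 2.97 and 6.69 in loss of function, passed the filter through its control libraries alone, which favours a decrease.

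The median of the spinal members, -0.34, lies beside -0.27 and -0.21 in these neural lists, and was not tested against them. The intermediate filament gene INA (ENSDARG00000011862) rose by 0.99 log2 units (limma adjusted p = 9.60e-04). Genes that mark position along the body also differed between groups. Hox genes of paralogue groups 1 to 4 were lower in 10 of 11 cases (median -0.42). Those of groups 5 to 8 were lower in 8 of 10 (median -0.35), and those of groups 9 to 13 were higher in 8 of 17 and lower in 1 (median 0.09). Over all tested genes, 20.0% were lower and 21.9% higher. Genes listed for head, forebrain and hindbrain gave 7 of 21 tested lower and 2 higher (median -0.34), with 14 more too low to test. Shares were 33.3% lower and 9.52% higher, beside 20.0% and 21.9% of all tested genes, and 42.9% called in all beside 41.9%. Genes of the head list need not be confined to the head, and the amount of head tissue left in each group was not tested. EN2 (ENSDARG00000026599) at -2.15, egr2a at -2.14 and ZIC1 at -0.34 fell (limma adjusted p = 2.06e-06, 1.56e-06 and 6.89e-05), while pitx3 (0.52) rose (limma adjusted p = 0.00921). Their part in the members' values was not tested.

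**Figure D4:**
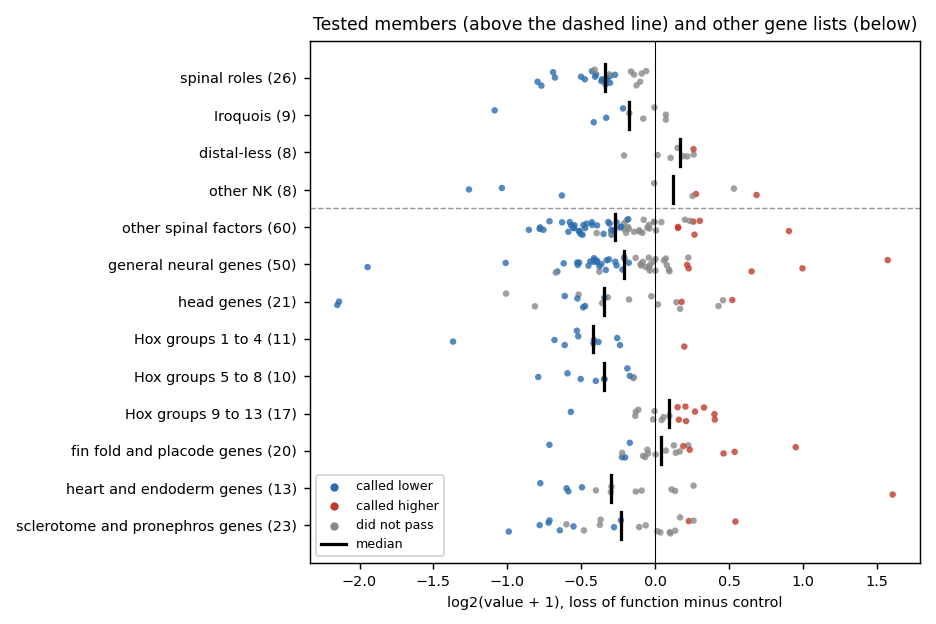
Log2 change (x axis, loss of function minus control) of tested genes in 4 sets of members, above the dashed line, and in 9 other gene lists, below it, with the number of tested genes in parentheses; black bars are medians. The medians are -0.34 for the spinal roles, -0.27 and -0.21 for the other spinal and general neural lists, and -0.42, -0.35 and 0.09 for Hox groups 1 to 4, 5 to 8 and 9 to 13.

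Other tissues that use some of these genes were checked in the same way. Heart and endoderm genes gave 4 of 13 lower and 1 higher (median -0.30). These are shares of 30.8% and 7.69% beside 20.0% and 21.9% of all tested genes, and 38.5% called in all beside 41.9%. PROX1 (-0.60), TBX20 (-0.78) and PTF1A (-0.59) were lower and the cardiac myosin gene MYH6 (1.60) was higher (limma adjusted p = 2.87e-05, 1.50e-04, 0.00190 and 2.99e-05). Sclerotome and pronephros genes gave 8 of 23 lower and 2 higher (median -0.23), shares of 34.8% and 8.70%, with 43.5% called in all. The podocyte factor WT1 (ENSDARG00000031420, -0.99) and MECOM (-0.65) were lower and the pronephric cadherin CDH17 (0.54) and the collagen COL1A2 (0.23) were higher (limma adjusted p = 1.90e-04, 1.04e-04, 2.43e-06 and 0.00349). ISL1 is shared with the first of these groups and the lhx1 genes with the second. The part of those tissues in their values was not tested. The lists are not separate sets, since PTF1A and PAX2 also count among the other spinal factors.

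Libraries of a group were not equal in these genes. Control replicate 2 held the highest control value in 19 of the 25 members called lower, and in 30 of all 52 tested. The summed normalized read count of the spinal members was 20193, 23693 and 21084 in control replicates 1, 2 and 3, and 17543, 17699 and 17738 in loss of function replicates 1, 2 and 3. Every control was therefore above every loss of function library by that sum, with the loss of function libraries close together. Control replicate 2 was also the highest control for the general neural list and for Hox groups 1 to 4, and the lowest for the blood markers hbae1.1, alas2 and gata1a, which summed to 1628, 837 and 2454 in the 3 controls and to 6877 to 7025 in loss of function. The part of these differences in the members was not tested. Without control replicate 2, 17 members were called lower, all of them among the 25, and 2 were called higher. The median coefficient of variation of the tested members was 8.79% in controls and 7.79% in loss of function, against 8.43% and 5.48% over all tested genes.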

How the data were processed

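RNA was sequenced from 3 control and 3 loss of function trunk libraries that kept no strand, per the labels, so overlapping antisense genes are not told apart. The authors' deposited gene tables hold a normalized signal. Of their values, 100% were, to within 0.001 of a read, read counts scaled by a single size factor in each library (0.897 to 1.13), which gave back whole reads. Build Zv9 and the tools DESeq 1.8.3, HTSeq 0.5.3, STAR 2.4.0j, Bowtie 0.12.9 and SAMtools are listed in the submitters' processing notes. The treatment of reads shared by gene copies is not stated there. Levels are not compared between genes, since gene lengths were not used. Exon tables were not analysed here, as nothing ties their exon IDs to genes.

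Symbols came from a table of Ensembl IDs, for 18555 of 24789 IDs (74.9%). Capitals mark human names, which copies can share.

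Differences were tested with limma 3.58.1 in R 4.3.3 (eBayes, intensity trend) on log2(value + 1). A gene needed 10 or more in 3 of 6 libraries, and 2-sided p-values were adjusted by Benjamini-Hochberg over every tested gene, with a threshold of 0.05. Alternatives were edgeR 4.0.16 (quasi-likelihood test) and DESeq2 1.42.0 on the whole reads, TMM or quantile scaling, pseudocounts of 0.5 and 5, no filter or a minimum of 50, no trend, a block for replicate number, and leaving out each library. Members, roles and lists were chosen with earlier results of these data known. Values per library are given for members called with an absolute log2 change of at least 0.5, for identity genes and for divided copies. Of each list, up to 3 genes per direction with the smallest adjusted p are named where the list is described by genes. CHAT and SLC6A5 were picked from the marker list, and the MNX1 and undivided copy ratios and the count with Iroquois genes were added, after their values were seen. The tests were tried on simulated data first. Tables were read with Python 3.11.15 and pandas 2.3.3. Some genes counted in the totals are not reported here by name.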

Additional observations from a re-analysis of the deposited data

How the results depend on the processing

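Of the 25 members called lower, 13 kept their call in every alternative run and 12 lost it in at least 1; of the 3 called higher, 2 kept it in all of them. Leaving out 1 library gave 17 to 24 members called lower, 13 to 17 of them with spinal roles. These counts, and those over all genes, stayed within 1.5 times the main count under each alternative. No called member changed sign. Members that did not pass changed sign as follows, in log2 units. NKX2-5 had 0.065 after quantile normalization, 0.0040 with a pseudocount of 5, 0.021 with edgeR and 0.035 with DESeq2, and irx4b had 0.0020 and IRX4 0.12 after quantile normalization. When 1 library was left out, values ran from -0.29 to 0.21 for NKX2-5, from -0.21 to 0.24 for IRX4, from -0.14 to 0.0094 for irx4b, from -0.51 to 0.051 for irx7, from -0.034 to 0.069 for DLX5, from -0.22 to 0.00041 for lhx5 and from -0.028 to 0.16 for irx5b. With the replicate number as a block, 25 members were lower and 3 higher. Same-numbered libraries did not deviate together (r across genes of -0.075, 0.0079 and -0.022), so the numbers were not taken as pairs, and not every library correlated best with its own number. Scaling moved the median of all genes by less than 0.1 log2 units. Depth limits the 11 members that were not tested, with 0 to 13 reads in a library, and the calls of NKX2-1, nkx3.3, IRX6, NKX6-3 and LHX9 rest on few reads. Intervals cover the spread of 3 libraries a group.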
